A study of Mus musculus with 7 samples.

Results

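The genes described here handle iron in mouse mammary tumours: its delivery to the cell, its storage, its oxidation on the way out, and the sensing of its level. The 7 genes named were Trf, Tfrc, Hfe, Fth1, Ftl1, Cp and Ireb2, chosen by name. A probe set, the group of short probes that reads a transcript on the array, was taken where the platform annotation gives it a single gene symbol and that symbol is one of these. This rule found 18 of the 22690 probe sets, which belong to 5 genes of 12394 with such a probe set. They are 6 for Tfrc, 2 for Fth1, 2 for Hfe, 7 for Cp and 1 for Ireb2. Every probe set that lists Trf (1) or Ftl1 (3) also lists another gene, so transferrin and the ferritin light chain are not analysed here.

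The arrays hold 3 samples labelled as Met1 transplant tumour and 4 labelled as DB7 transplant tumour, both mammary lines derived from mice carrying a polyoma middle T oncogene. Met1 is known to metastasise readily and DB7 seldom, and the series asks how basal expression differs between them. The design text speaks of tumours from first-generation crosses of a middle T strain (PyMT) with AKR/J and DBA/2J mice, whereas every sample label names a transplant tumour, and the labels were followed. The host strain, sex and age, the time after transplantation and the form of the transgene in each line are not stated in the labels or the design text. No label says that each array came from a separate mouse, so the spread behind each p-value is that between arrays and could be technical. Each line stands for 1 tumour line, so metastatic behaviour cannot be told apart from any other difference between them.

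Values are log2 probe set summaries, and differences are Met1 minus DB7 on that scale. A probe set was tested where it lay above the array's median (6.53 to 6.61) on at least 3 of the 7 arrays, and adjusted p-values are limma's, with a threshold of 0.05 over all 11704 tested probe sets. Arrays correlated at 0.983 to 0.989 within Met1, 0.962 to 0.980 within DB7 and 0.886 to 0.905 between the lines, across tested probe sets. None of 5 epithelial markers (Krt8, Krt18, Krt19, Epcam and Cdh1) was below the median on every array, with means of 9.64 to 9.99 in Met1 and 10.04 to 10.18 in DB7. Of the 4 tested, Krt18, Epcam and Krt8 were lower in Met1 (differences -1.01, -0.48 and -0.32; limma, adjusted p = 0.000197, 0.00437 and 0.043), and Cdh1 did not pass. Among all tested genes 17.9% were lower in Met1 at this threshold. Arrays DB7 1 and DB7 4 stood apart from DB7 2 and DB7 3 in markers of other cells. The mean of 12 macrophage markers was 7.89 to 8.28 in Met1, against 8.42 and 8.13 in DB7 1 and DB7 4 and 7.58 and 7.68 in DB7 2 and DB7 3. Fibroblast markers (9 genes) ran likewise, at 8.60 to 9.24 in Met1, 9.32 and 8.75 in DB7 1 and DB7 4, and 8.18 and 7.79 in DB7 2 and DB7 3. Endothelial, adipocyte and B cell marker means were also higher in DB7 1 and DB7 4 than in DB7 2 and DB7 3. The B cell mean was 5.73 to 5.91 in Met1, against 7.18 and 7.51 in DB7 1 and DB7 4 and 5.88 and 6.05 in DB7 2 and DB7 3.

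Cells take up iron mainly as transferrin bound to the transferrin receptor, which Hfe binds and modulates together with beta-2-microglobulin. Iron that is not used is stored inside ferritin shells of heavy and light chains, or leaves through ferroportin and is oxidised by ceruloplasmin or hephaestin for binding to transferrin. The iron regulatory proteins, encoded by Aco1 and Ireb2, bind stem-loops in messenger RNAs when iron is scarce, which stabilises the receptor's transcript and blocks translation of ferritin. In the mammary gland, transferrin and lactoferrin are also secreted into milk.

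Ceruloplasmin was higher and the transferrin receptor lower in Met1 than in DB7, and Ireb2 was slightly higher, while Fth1 and Hfe did not pass the test. Of the 5 genes, each read from its tested probe set with the highest mean, 2 rose and 1 fell, where 30.9% of all tested genes passed (13% higher and 17.9% lower). At the level of probe sets, 11 of 18 were tested, of which 6 rose, 2 fell and 3 did not pass, where 31% of all tested probe sets passed. Another 4 lay too low to be tested and 3 are array controls that were kept out of the tests. All 12 probe sets of Fth1, Hfe, Cp and Ireb2 differed in the positive direction and all 6 of Tfrc in the negative direction, whether or not they were tested, though probe sets of a gene share its RNA.

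**Figure D1:**
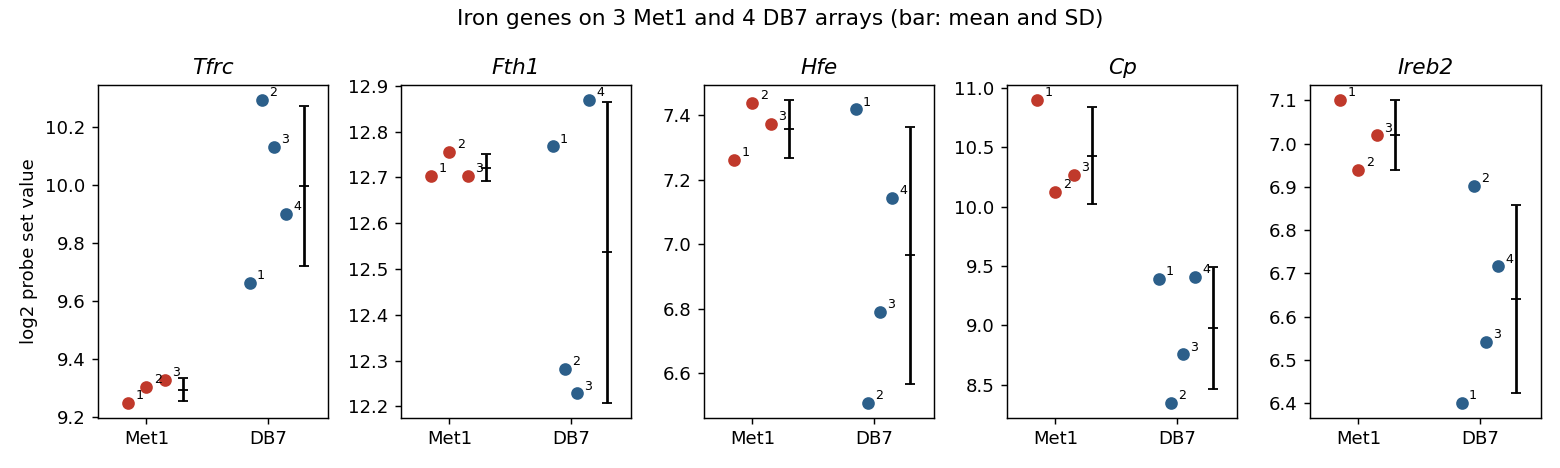
Log2 value of the probe set that stands for each gene, by array, with each panel on its own axis. Red points are the 3 Met1 arrays and blue points the 4 DB7 arrays, numbered by replicate, and bars give the mean and SD. For Tfrc, Cp and Ireb2 the groups do not overlap, and for Fth1 and Hfe the DB7 points lie on both sides of or among the Met1 points.

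Tfrc encodes the receptor that carries iron-loaded transferrin into the cell (chromosome 16, 32608896 to 32632794, GRCm38.p6). Its brightest probe set, 1452661_at, read 9.25, 9.31 and 9.33 in Met1, against 9.66, 10.29, 10.13 and 9.90 in DB7. Every Met1 array lay below every DB7 array, and the Met1 values were close together while those of DB7 were spread widely. The means were 9.30 ± 0.04 in Met1 and 9.998 ± 0.275 in DB7 (SD, n = 3 and 4), a 1.63-fold lower level in Met1 (difference -0.70, SE 0.14; limma, adjusted p = 0.0057). In an exact permutation test of this probe set alone, two-sided, p was 0.0571, where 0.0286 is the smallest the 35 splits allow. Leaving out any single array kept the limma call, with differences of -0.81 to -0.60.

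The other Tfrc probe sets ran the same way. The second tested one, 1422966_a_at, read 7.59, 7.57 and 7.57 in Met1, against 7.85, 8.54, 8.52 and 7.85 in DB7, and fell by 0.61 (SE 0.19; limma, adjusted p = 0.0345). Here too the groups did not overlap, as for 39.4% of all tested probe sets. That call was lost without Met1 1, Met1 2, Met1 3, DB7 2 or DB7 3 (adjusted p 0.0699 to 0.0995), under median centring (0.0539) and without the intensity filter (0.0506). The third, 1422967_a_at, was too low to be tested, at 5.41, 5.58 and 5.32 in Met1 and 5.37, 5.87, 6.72 and 5.85 in DB7, where DB7 1 lay among the Met1 values.

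The array also carries 3 control probe sets for this receptor, spaced along its transcript to show RNA integrity. The 3' control read 6.57, 6.67 and 6.56 in Met1, against 6.75, 7.13, 7.24 and 6.78 in DB7, with no overlap. The middle and 5' controls lay below the median on every array and differed by -0.29 and -0.40, with DB7 1 within or below the Met1 range. The 3' minus 5' difference within an array was 2.72 ± 0.06 in Met1 and 2.69 ± 0.13 in DB7 (SD, n = 3 and 4). With the 5' control so low, these values do not show whether RNA integrity was alike in the lines.

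Beside the fall of Tfrc, all 14 tested genes of the 16 on a proliferation list fell, where 17.9% of all tested genes did. Their median difference was -1.21, against -0.04 over all tested genes. Birc5, survivin, was 4.00-fold lower and Ccna2, cyclin A2, 2.67-fold lower (limma, adjusted p = 1.32e-05 and 2.11e-05). Rrm1, a subunit of ribonucleotide reductase, was 2.99-fold lower and Top2a, topoisomerase 2 alpha, 2.72-fold lower (limma, adjusted p = 2.57e-05 and 4.67e-05). The list's mean was 7.90 to 7.96 in Met1 and 8.79 to 9.12 in DB7. Its part in the Tfrc difference was not tested. Among 7481 other tested genes, the 3 whose profiles over the 7 arrays lay closest to that of Tfrc, after each was centred on its own mean, were Timm17a, a subunit of the mitochondrial inner membrane import complex, Dbf4, the activator of the replication kinase Cdc7, and Rabggtb, a subunit of a prenyltransferase. Their root-mean-square distances were 0.06, 0.07 and 0.07.

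The promoter of Tfrc is shown because the receptor and ceruloplasmin, which differed in opposite directions, are both known targets of hypoxia-inducible factors. The window runs from 250 bases before to 10 after the first of 2 RefSeq starts, at chr16:32608646-32608905 (plus strand, GRCm38.p6), and capitals mark motif matches.
Tfrc promoter: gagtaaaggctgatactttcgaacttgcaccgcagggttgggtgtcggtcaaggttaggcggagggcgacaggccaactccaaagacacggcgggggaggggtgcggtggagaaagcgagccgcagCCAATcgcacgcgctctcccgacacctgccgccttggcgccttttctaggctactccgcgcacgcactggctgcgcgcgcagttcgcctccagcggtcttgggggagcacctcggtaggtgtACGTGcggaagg
Searched on both strands were ACGTG, a form of the hypoxia response element core, CCAAT, the GC box GGGCGG and the TATA box TATAAA. Other forms of that core were not searched. The Tfrc window holds ACGTG at -2 to 3, across the start, and CCAAT at -124 to -120. The window of the second start, at chr16:32608872-32609131, overlaps the first and holds the same ACGTG site, there at -228 to -224. It also holds GGGCGG at -35 to -30 and at 4 to 9. Of 32851 promoter windows of this length, 17.3% hold ACGTG, 34.6% hold CCAAT and 33.4% hold GGGCGG on either strand. These matches describe the letters of the window only.

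Hfe encodes the haemochromatosis protein, a relative of MHC class I chains that binds the receptor (chromosome 13, 23702034 to 23710854). The tested probe set, 1422645_at, read 7.26, 7.44 and 7.37 in Met1, against 7.42, 6.51, 6.79 and 7.14 in DB7. DB7 1 lay among the Met1 arrays and the other DB7 arrays below them. The means of 7.36 ± 0.09 in Met1 and 6.97 ± 0.40 in DB7 (SD, n = 3 and 4) differed by 0.39 (95% interval -0.04 to 0.82; limma, adjusted p = 0.153). Without DB7 1 the difference was 0.54 and passed (adjusted p = 0.0261), and without DB7 2 it was 0.24 (adjusted p = 0.269). A second probe set lay below the median on every array and differed by 0.10. B2m, whose product is the partner chain of Hfe, fell by 0.48 (SE 0.15; limma, adjusted p = 0.0401), at 12.44, 12.58 and 11.84 in Met1 and 12.73 to 12.81 in DB7. Its call was lost without Met1 1, DB7 1, DB7 2, DB7 3 or DB7 4 (adjusted p 0.059 to 0.0794), under median centring (0.0621) and without the intensity filter (0.0636). Without Met1 3 the difference was -0.26 (adjusted p = 0.0383).

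Fth1 encodes the heavy chain of ferritin, which oxidises iron as it enters the shell (chromosome 19, 9980600 to 9985111). Its brighter probe set, 1427021_s_at, read 12.70, 12.76 and 12.70 in Met1, against 12.77, 12.28, 12.23 and 12.87 in DB7. The Met1 arrays lay within a narrow band, with DB7 1 and DB7 4 above it and DB7 2 and DB7 3 below it. The means were 12.72 ± 0.03 in Met1 and 12.54 ± 0.33 in DB7 (SD, n = 3 and 4), and the difference of 0.18 did not pass (95% interval -0.17 to 0.54; limma, adjusted p = 0.41). Leaving out single arrays moved it between 0.08 without DB7 3 and 0.30 without DB7 4, and it did not pass in any of these fits. The other probe set, 1448771_a_at, differed by 0.22 (95% interval -0.08 to 0.53; adjusted p = 0.245). It passed without DB7 4 (difference 0.35, adjusted p = 0.0236) and was 0.15 without DB7 2 (adjusted p = 0.421). Both Fth1 probe sets carry the suffix of sets that can match several transcripts, and ferritin has many processed pseudogenes, so signal of related sequences cannot be told apart from that of Fth1.

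In DB7 2 and DB7 3, Fth1, Hfe and Cp were lower, and Tfrc higher, than in DB7 1 and DB7 4. The Met1 mean of Fth1 minus the mean of DB7 2 and DB7 3 was 0.47, and minus that of DB7 1 and DB7 4 it was -0.10. For Hfe these differences were 0.71 and 0.08, for Cp 1.88 and 1.03, and for Tfrc -0.92 and -0.49. Ireb2 did not follow this order, at 0.30 and 0.46. When DB7 1 and DB7 4 were left out, Fth1 and Hfe passed (differences 0.47 and 0.71; limma, adjusted p = 0.00195 and 0.00357) and Ireb2 did not (0.30, adjusted p = 0.116), which gave 3 genes higher and 1 lower. That choice was made with the values known and moves Fth1 and Hfe upward by construction. The macrophage, fibroblast, endothelial, adipocyte and B cell marker means were likewise lower in DB7 2 and DB7 3. In limma, 0 of the 9 tested macrophage and 0 of the 7 tested fibroblast genes passed between the lines. Among all tested genes 30.9% passed. At an unadjusted p under 0.05 the counts were 0 and 1, against 3076 of all 7482 tested genes. Within DB7 the macrophage mean ranged from 7.58 to 8.42 and the fibroblast mean from 7.79 to 9.32. With such spread, these counts do not show that the lines were alike in these cells. The part of these cells in the values of the iron genes was not tested. In bulk tumour RNA, fewer cells of a type and less RNA per cell cannot be told apart.

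**Figure D2:**
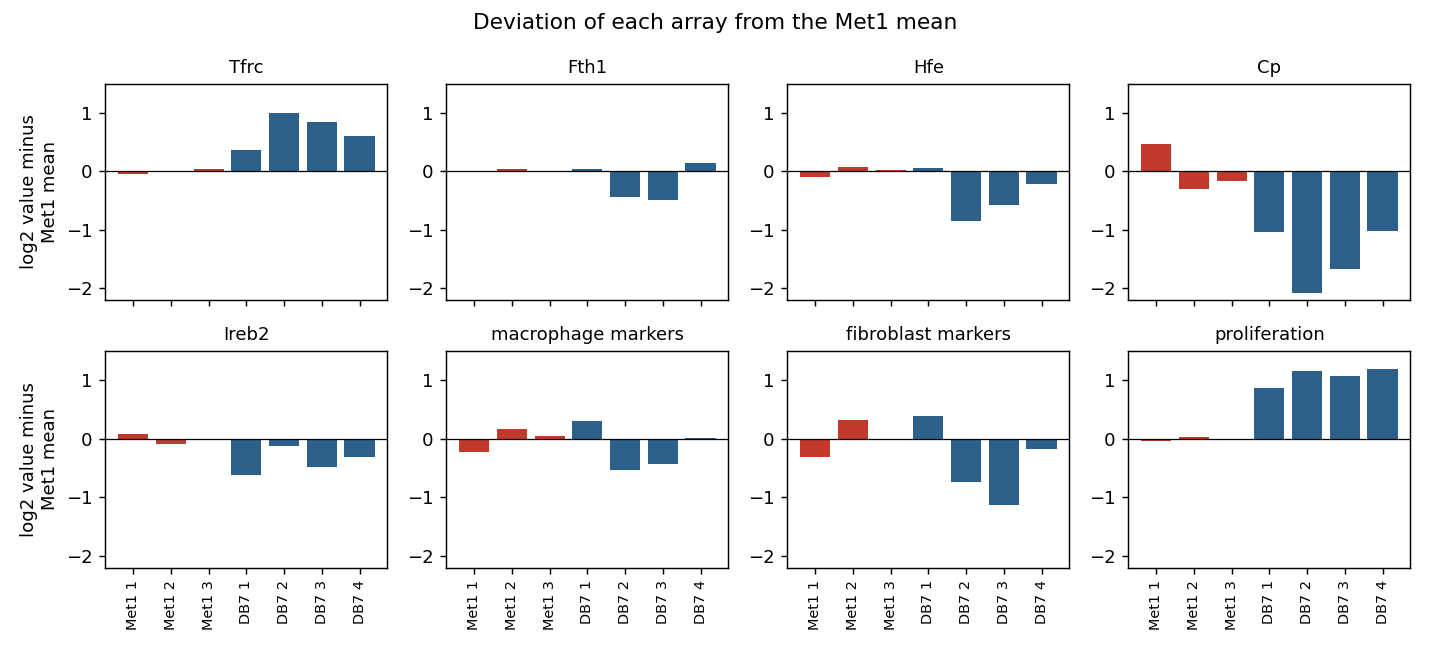
Deviation of each array from the Met1 mean (log2) for the 5 iron genes and for the means of the macrophage, fibroblast and proliferation lists, with Met1 arrays in red and DB7 arrays in blue. Fth1, Hfe and the macrophage and fibroblast means fall below 0 mainly in DB7 2 and DB7 3, whereas Tfrc and proliferation lie above 0 and Cp and Ireb2 below 0 in all 4 DB7 arrays.

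The receptor was set against ferritin heavy chain within each array, as a gene of uptake against a gene of storage. Iron regulatory proteins stabilise the receptor's transcript but block translation of ferritin, which RNA values do not read. The difference therefore does not measure their action. Tfrc minus Fth1 was -3.45, -3.45 and -3.37 in Met1, against -3.10, -1.99, -2.10 and -2.97 in DB7. The groups did not overlap, and DB7 2 and DB7 3 lay about a log2 unit above the other arrays of their line. The means differed by -0.89 (-3.43 ± 0.05 in Met1 and -2.54 ± 0.58 in DB7; SD, n = 3 and 4; exact permutation test, two-sided, p = 0.0857), which did not pass. Such a difference shows unequal change only, since probe sets of different genes are not on a common level scale.

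Cp encodes ceruloplasmin, the copper-containing oxidase that loads iron onto transferrin and is also an acute-phase protein of plasma (chromosome 3, 19956933 to 20009750). Its brightest probe set, 1417494_a_at, read 10.90, 10.13 and 10.27 in Met1, against 9.39, 8.35, 8.76 and 9.41 in DB7. All Met1 arrays lay above all DB7 arrays, with the smallest gap between Met1 2 and DB7 4. The means were 10.43 ± 0.41 in Met1 and 8.98 ± 0.52 in DB7 (SD, n = 3 and 4), a 2.74-fold higher level in Met1 (difference 1.45, SE 0.28; limma, adjusted p = 0.00479). An exact permutation test of this probe set alone gave p = 0.0286, two-sided, the smallest the design allows.

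All 5 tested Cp probe sets rose, by 1.41 to 1.73, and in none did the groups overlap. Among all tested probe sets 13.4% rose, and in 39.4% the groups did not overlap. The 5 read RNA of the same gene on the same arrays, so they are not independent results. The widest difference was that of 1455393_at, which read 10.47, 9.44 and 9.62 in Met1 and 8.43, 7.37, 7.82 and 8.84 in DB7 (limma, adjusted p = 0.00639). In each of the 5, Met1 1 was the highest and DB7 2 the lowest array. Each of these calls held when any single array was left out, with the difference at 1417494_a_at between 1.22 and 1.61. The remaining 2 probe sets lay below the median on every array and differed by 0.26 (1448735_at) and 0.07 (1417497_at).

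**Figure D3:**
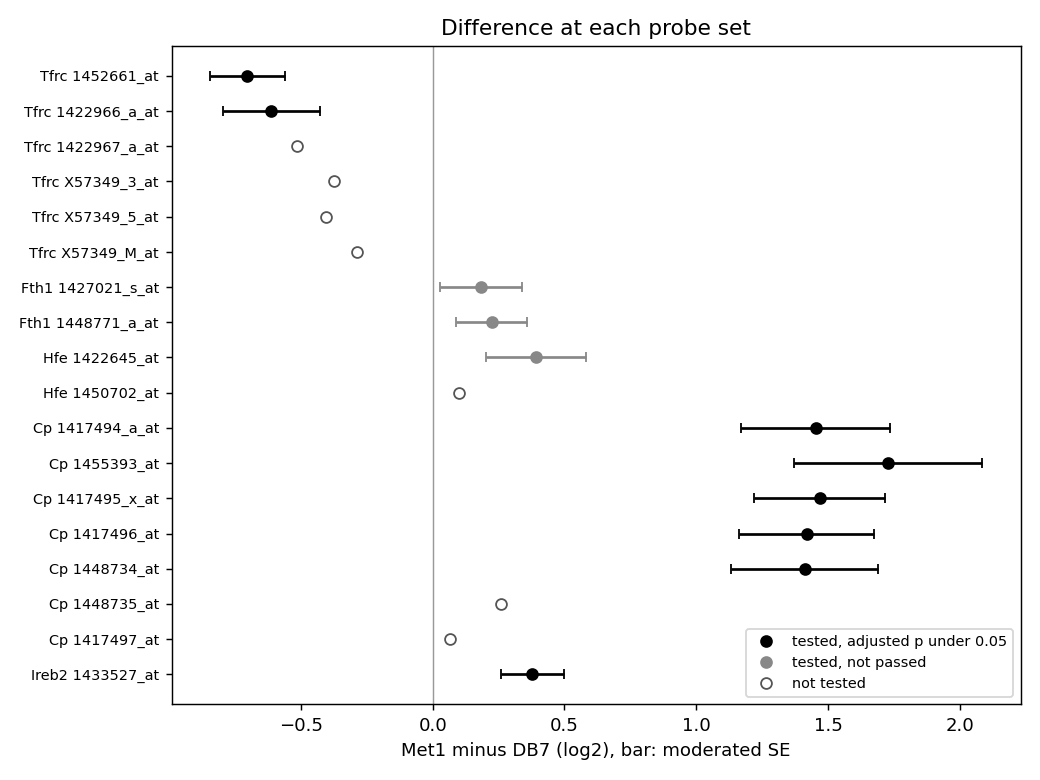
Met1 minus DB7 difference (log2) at each of the 18 probe sets, with bars for limma's moderated SE where a probe set was tested. Filled black points passed at an adjusted p under 0.05, grey points did not, and open points were not tested. The 5 tested Cp probe sets lie between 1.41 and 1.73, and all 6 Tfrc probe sets lie below 0.

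The start of Cp is shown for comparison with that of Tfrc. It is the second RefSeq start of the gene, the one whose window holds motif matches, at chr3:19956999-19957258 (plus strand, GRCm38.p6), with matches in capitals.
Cp promoter: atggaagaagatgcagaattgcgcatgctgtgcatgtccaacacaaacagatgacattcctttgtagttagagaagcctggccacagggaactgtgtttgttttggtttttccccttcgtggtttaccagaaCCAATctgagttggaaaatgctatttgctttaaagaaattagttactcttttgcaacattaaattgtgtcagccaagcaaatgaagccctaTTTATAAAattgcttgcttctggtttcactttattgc
It holds CCAAT at -118 to -114 and TATAAA at -25 to -20, the second overlapping a reverse-strand match at -27 to -22. TATAAA occurs in 12.7% of the promoter windows on either strand. The window at the other Cp start held none of the 4 motifs, and neither Cp window held ACGTG, which says only that these letters are not there.

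As ceruloplasmin is an acute-phase protein, that group was read beside it. Of 14 acute-phase genes 4 were tested, of which 2 rose and 0 fell, where 30.9% of all tested genes passed. The median difference was 0.42 over these 4 and 0.04 over all 14 measured, of which 9 lay below the median on every array. Saa1, a serum amyloid A protein, was 23-fold higher in Met1, at 8.63, 8.34 and 7.73, against 3.48 to 3.92 in DB7 (limma, adjusted p = 2.17e-06). Saa1 passed the intensity filter only through its Met1 values and has close relatives in the genome. Saa3 differed by -0.38 (SE 0.21) and Hp, haptoglobin, by 0.14 (SE 0.61), and neither passed. Of 7 hepatocyte markers 3 were tested, of which 0 rose and 1 fell. Apoa1, an apolipoprotein, differed by 0.10 and Ttr, transthyretin, by -0.03, and neither passed. Ahsg, fetuin A, fell by 1.93 (limma, adjusted p = 4.53e-06), having passed the intensity filter only through its DB7 values. Alb, albumin, lay below the median on every array, was not tested and differed by -0.05.
The 3 genes with profiles closest to that of Cp were Tgfb3, a transforming growth factor beta, Cryab, a small heat shock protein, and Dab2, an endocytic adaptor, at root-mean-square distances of 0.19, 0.19 and 0.21.

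Ireb2 encodes iron regulatory protein 2, which is degraded when iron is plentiful (chromosome 9, 54862658 to 54912534). Its single probe set, 1433527_at, read 7.10, 6.94 and 7.02 in Met1, against 6.40, 6.90, 6.54 and 6.72 in DB7. The groups did not overlap, but DB7 2 came close to Met1 2. The means of 7.02 ± 0.08 in Met1 and 6.64 ± 0.22 in DB7 (SD, n = 3 and 4) make it 1.3-fold higher in Met1 (difference 0.38, SE 0.12; limma, adjusted p = 0.0407). This call was lost when Met1 1, Met1 2, Met1 3, DB7 1, DB7 3 or DB7 4 was left out (adjusted p 0.0577 to 0.132) and without the intensity filter (0.0579). Aco1, which encodes iron regulatory protein 1, rose by 0.44 (SE 0.10; adjusted p = 0.0106), at 8.37, 8.30 and 8.08 in Met1, against 7.72, 7.79, 7.74 and 7.99 in DB7. Its other tested probe set differed by 0.91. Closest in profile to Ireb2 were Rps7, a ribosomal protein, Itga6, integrin alpha 6, and Zscan26, a zinc finger protein, at distances of 0.04, 0.06 and 0.06.

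Of 37 other genes of iron handling, 23 were tested, of which 7 rose, 2 fell and 14 did not pass. Among all tested genes 30.9% passed (13% higher and 17.9% lower). The median difference was 0.22 over the tested iron genes of this list and 0.07 over all 32 measured. Median centring gave 8 higher and 1 lower. Ltf, the iron-binding milk protein lactoferrin, had the widest difference, at 12.78, 12.95 and 12.45 in Met1, against 8.29, 8.31, 8.43 and 7.99 in DB7 (22.2-fold; limma, adjusted p = 2.62e-07). Meltf, melanotransferrin, a transferrin family protein held at the cell surface, was 2.85-fold higher (adjusted p = 0.000173), at 7.58, 7.43 and 7.89 in Met1, against 6.10, 5.77, 6.28 and 6.33 in DB7. It passed the filter only through its Met1 values. Lcn2, lipocalin 2, which sequesters iron-carrying siderophores, rose by 0.70 (SE 0.06; adjusted p = 6.23e-05) near the top of the array's range, at 13.57 to 13.72 in Met1 and 12.92 to 13.03 in DB7.

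Membrane transporters of iron differed in both directions. Slc40a1, ferroportin, the iron exporter, was 1.76-fold higher in Met1, at 7.37, 6.99 and 7.08, against 6.63, 5.76, 6.33 and 6.59 in DB7 (limma, adjusted p = 0.0146). Its call was lost without Met1 1 (adjusted p = 0.0659). Slc39a14, an importer of zinc and of iron not bound to transferrin, was 1.77-fold higher (adjusted p = 0.00118), although its other tested probe set differed by 0.19. Slc11a2, the divalent metal transporter that moves iron out of endosomes, fell by 0.49 (SE 0.11; adjusted p = 0.00887), at 6.86, 7.22 and 7.06 in Met1, against 7.36, 7.54, 7.67 and 7.58 in DB7. Its other tested probe sets differed by -0.36 and -0.14.

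Of the genes described next, Steap4 passed. The others belong to the same list and were chosen after values were seen, so they give no count for reductases or haem-handling genes. Steap4, a metalloreductase, rose by 0.51 (SE 0.16; limma, adjusted p = 0.038), which did not hold without Met1 1, Met1 2, DB7 2, DB7 3 or DB7 4 (adjusted p 0.0653 to 0.133) or without the intensity filter (0.0551). Steap3, the ferrireductase of endosomes, differed by -0.13 (SE 0.12) and did not pass. Hmox1 and Hmox2, the haem oxygenases that release iron from haem, differed by 0.45 (SE 0.18) and 0.22 (SE 0.09) without passing (adjusted p = 0.0981 and 0.0994). Ncoa4, the receptor that takes ferritin to lysosomes, differed by 0.11 (SE 0.09). Tfr2, the second transferrin receptor, differed by 0.03 (SE 0.11; adjusted p = 0.845).

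**Figure D4:**
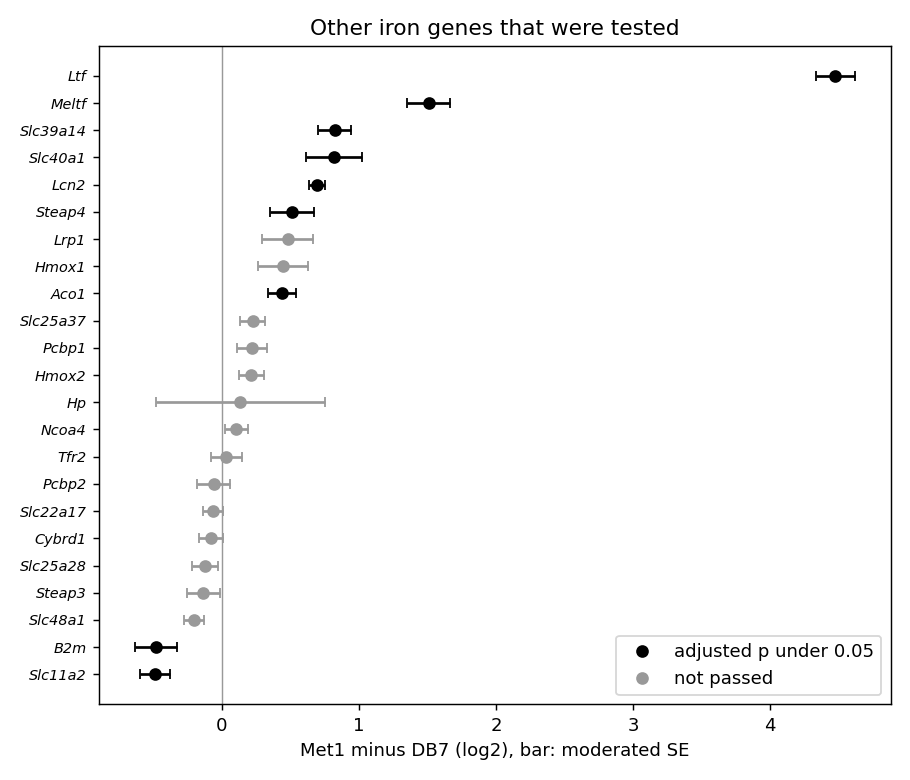
Met1 minus DB7 difference (log2) of the 23 other iron genes that were tested, with bars for limma's moderated SE. Black points passed at an adjusted p under 0.05, 7 above 0 and 2 below 0. Ltf lies at 4.47, and the other points lie between -0.49 and 1.51.

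Genes that use iron for haem and iron-sulphur clusters differed by small amounts. Of 9 haem synthesis genes 7 were tested, of which 2 rose and 1 fell (median 0.12), where 30.9% of all tested genes passed. Urod, uroporphyrinogen decarboxylase, rose by 0.56 (SE 0.08), Alas1, the first enzyme of the pathway, by 0.29 (SE 0.08), and Ppox, protoporphyrinogen oxidase, fell by 0.30 (SE 0.09; limma, adjusted p = 0.00114, 0.0216 and 0.0379). Alad, which makes porphobilinogen, differed by 0.29 (SE 0.15) and did not pass. Of 11 tested genes of iron-sulphur cluster assembly among 17, 1 rose and 2 fell (median -0.07). Hspa9, the mitochondrial chaperone mortalin, fell by 0.50 (SE 0.12), Nubp2, a cytosolic scaffold, rose by 0.28 (SE 0.08) and Hscb, a co-chaperone, fell by 0.24 (SE 0.08; adjusted p = 0.0111, 0.031 and 0.0497). Nubp1, the partner of Nubp2, differed by 0.30 (SE 0.11) without passing.

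Milk proteins share lactoferrin with the iron genes. Of 12 listed, 8 were tested and all of these passed, 7 higher and 1 lower, where 30.9% of all tested genes passed. The median difference was 2.27 over these 8 and 1.32 over all 12 measured. Wap and Btn1a1, among those higher, passed the intensity filter only through their Met1 values. Lalba, alpha-lactalbumin, was 50.3-fold and Xdh, xanthine dehydrogenase, 3.45-fold higher in Met1 (limma, adjusted p = 6.9e-08 and 8.56e-06). Lpo, lactoperoxidase, a haem enzyme of milk, ran the other way and fell by 2.40 (SE 0.13; adjusted p = 5.71e-06), at 6.63, 6.57 and 7.04 in Met1, against 9.10, 9.26, 9.26 and 8.96 in DB7.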

How the data were processed

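Total RNA of 7 samples labelled as transplant tumour, extracted with Trizol, was labelled and hybridised to 1-colour Affymetrix arrays, per the labels' protocols. Values were used as deposited, and their range of 2.27 to 14.02 is that of a log2 scale. RMA and MAS5 appear in the submitters' processing notes with no role. No label states the log base, background correction or detection calls, and summaries near the floor or ceiling can compress a difference. The number of arrays limits the precision.

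The 64 control probe sets were not tested. Of the other probe sets, 20380 have 1 symbol in GEO's platform annotation, 691 several and 1555 none. Entrez identifiers of 20351 were found in RefSeq (GRCm38.p6), and no symbol needed updating. The lines were compared in R 4.3.3 by limma 3.58.1 (lmFit, eBayes with an intensity trend, all 7 arrays, Benjamini-Hochberg). Exact permutation tests used difference of means over 35 splits. The fit was tested on simulated data. All members are described. Of each pathway list, up to 4 tested genes with the smallest p were named, with every other iron gene past the threshold, and the 3 genes nearest in profile to each member past it. Other genes named (Alb, Apoa1, Ttr, Ahsg, Wap, Btn1a1, Steap3, Hmox1, Hmox2, Ncoa4, Tfr2, Slc39a8, Hamp, Adipoq and the epithelial markers) were chosen after values were seen. Members, lists and alternatives were chosen with earlier results of these data known. Planned comparisons of Trf with milk proteins and of Fth1 with Ftl1 were not run, because both need a probe set with a single symbol. Same-numbered arrays of the lines correlated at -0.17, -0.05 and 0.02 in their deviations from the group means, so the numbers were not taken as pairs. Promoter windows are from RefSeq, GRCm38.p6, which matched all 5 genes.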

Additional observations from a re-analysis of the deposited data

Results flagged for a closer look

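A single DB7 array stood far from the other 3 in 2 of the 29 quantities examined. Chance marks about 1 in 20 groups of this size, and the number flagged is near that share. At the Cp probe set 1417496_at, DB7 2 read 6.33 and the other DB7 arrays 7.09 to 7.22, so that the gap was 0.855 of the whole range, above Dixon's 95% critical value. Without DB7 2 the difference at this probe set was 1.21. In the 3' minus 5' difference of the Tfrc control probe sets, DB7 1 stood at 2.88 and the other DB7 arrays at 2.62 to 2.63, a gap of 0.95 of the range. In both quantities 1 array sets the spread of DB7, and the causes were not tested.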

How the results depend on the processing

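Of 18 alternatives, 9 gave 3 called iron genes, 8 gave 2 and 1 gave 4. The number was 2 where Ireb2 lost its call or its test, except that it stayed at 3 without DB7 1, where Hfe passed, and was 4 without DB7 1 and DB7 4, where Fth1 and Hfe passed. Leaving out single arrays gave 2 to 3 called iron genes, 6 to 11 called other iron genes, 2468 to 3802 called probe sets and a Tfrc minus Fth1 difference of -1.08 to -0.70. The brightest Tfrc and all tested Cp probe sets kept direction and call under every alternative in which they were tested. With the replicate number as a block, Ireb2 (0.40, adjusted p = 0.0941) and B2m (-0.47, adjusted p = 0.0689) lost their calls, 2803 probe sets, 2 iron genes and 8 other iron genes were called, and Tfrc minus Fth1 was -1.03 (exact p = 0.25). Called other iron genes numbered 5, all higher, without probe sets of suffix _s_at, _x_at or _a_at, where fewer probe sets were tested, and 5, all higher, without DB7 2 and DB7 3, a choice added after seeing the data. No called value changed sign. Fth1 at 1427021_s_at, which was not called, turned to -0.10 (adjusted p = 0.329) without DB7 2 and DB7 3.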

Other observations

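Of the 9 other iron genes that were measured but not tested, 2 had groups that did not overlap. Among tested probe sets 39.4% had such groups, a share that does not cover probe sets below the intensity filter. Slc39a8, a transporter of zinc and other divalent metals, read 4.44, 4.73 and 4.70 in Met1, against 4.999, 4.969, 5.11 and 5.25 in DB7. Hamp, hepcidin, the hormone that removes ferroportin from the cell surface, read 5.67 to 5.71 in Met1, against 5.79 to 5.87 in DB7. Both lay below the array medians and neither was tested. Hp, haptoglobin, which binds free haemoglobin, varied within both lines, at 6.997, 9.54 and 8.14 in Met1, against 9.18, 7.41, 7.29 and 8.48 in DB7. It was higher in DB7 1 and DB7 4 than in DB7 2 and DB7 3, as was the macrophage marker mean (8.42 and 8.13, against 7.68 and 7.58 in DB7 3 and DB7 2). Adipoq, adiponectin, an adipocyte marker, read 5.29, 8.29 and 6.98 in Met1 and 8.71, 6.51, 5.10 and 7.02 in DB7, and the mean of 6 measured adipocyte markers was 5.69, 6.97 and 6.53 in Met1 and 7.10, 5.99, 5.64 and 6.28 in DB7. The part of these cells in the Hp values was not tested.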
